A study of Homo sapiens with 8 samples.

Results

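The genes described here are 30 genes of cholesterol and fatty acid synthesis, from the enzymes that build mevalonate to the sterol sensors and the desaturases. They were chosen by name, with no threshold on their measured values but with earlier results of these data known, and all 30 were found among the 25411 genes listed for each RNA-Seq library. Expression was measured in BEAS-2B cells, an immortalized line of human bronchial epithelial cells grown in medium with 10% fetal bovine serum. There were 8 libraries in 4 groups, with 2 biological replicates in each group. Untreated cells (UT) served as the control, and the nickel-exposed group (Ni-E) received 100 µM NiCl2 over 6 weeks. The nickel-washed-out group (Ni-W) had that exposure and was then expanded in nickel-free medium for over 6 months as a single, randomly selected population grown from an individual cell. HCl3 cells had the same treatment text as Ni-W, but their time without nickel and their relation to Ni-W were not given. The labels assigned both Ni-E libraries to experiment 2 and the HCl3 libraries to experiments 3 and 4, so that group and experiment cannot be told apart. With a single clonal population in Ni-W, a property of that clone and an effect of nickel cannot be told apart either.

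Animal cells make cholesterol from acetyl-CoA by way of mevalonate, farnesyl diphosphate and squalene, and make fatty acids from the same acetyl-CoA by way of malonyl-CoA. Both routes are governed by the sterol regulatory element-binding proteins (SREBPs), transcription factors encoded by SREBF1 and SREBF2 that wait in the endoplasmic reticulum bound to the escort protein SCAP. When sterols are plentiful, the INSIG proteins hold SCAP in place. When sterols are scarce, SCAP carries the SREBPs to the Golgi, where they are cut and released to the nucleus. The SREBF2 product acts chiefly on genes of cholesterol synthesis and the main SREBF1 products chiefly on genes of fatty acid synthesis. In the lung, the same pathways supply the lipids of surfactant, which is made by alveolar cells rather than by bronchial cells.

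Total counts were 26383920 to 45692298 reads per library, and no member had fewer than 205 reads in any library, so counting error was small for each of the 30. The cells carried the epithelial keratins KRT7, KRT8 and KRT18 at 144.46 RPKM (reads scaled by transcript length and library size) or more, whereas the epithelial cadherin CDH1 did not exceed 0.11 RPKM and EPCAM did not exceed 1.79 RPKM. The alveolar surfactant gene SFTPC was listed at 0 in all 8 libraries. Adipocyte and hepatocyte markers, 4 genes from cells with high lipid synthesis, summed to at most 0.15 RPKM in any library. Of 4 fibroblast markers only the collagen genes COL1A1 and COL1A2 exceeded 1 RPKM, and the list summed to 338.08 to 390.43 RPKM in UT, 177.63 to 337.35 in Ni-E, 218.32 to 245.49 in Ni-W and 433.44 to 456.18 in HCl3. The 6 epithelial markers summed to 602.24 to 635.99 RPKM in UT, 579.19 to 793.59 in Ni-E, 946.56 to 971.73 in Ni-W and 934.50 to 995.59 in HCl3, so that both groups grown without nickel lay above UT and Ni-E. Of 3 immune markers only CD68 exceeded 1 RPKM, with the list at 14.37 to 21.8 RPKM, and 3 endothelial markers summed to at most 0.11 RPKM. The part of these marker levels in the results was not tested. In RNA from whole cultures, fewer cells that express a gene and less of its RNA per cell cannot be told apart.

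Sequences before the transcription start are shown for 4 members as examples. Promoter sequences were taken from RefSeq (GRCh38.p14) as the 250 bases before a listed transcription start, and 26 of the 30 members had at least 1. ACAT2, FASN, FDFT1 and SQLE had none in that table. Windows were searched on both strands for an SREBP site written TCACNCCAC, the box CCAAT bound by the factor NF-Y, which works beside SREBPs at many of these genes, and the E-box CACGTG. Capitals mark each match, on whichever strand it was found. The windows of SREBF2 (chr22:41832855-41833104, plus strand), HMGCS1 (chr5:43313413-43313662, minus strand), SCD (chr10:100346983-100347232, plus strand) and SREBF1 (chr17:17836987-17837236, minus strand) read as follows.
SREBF2: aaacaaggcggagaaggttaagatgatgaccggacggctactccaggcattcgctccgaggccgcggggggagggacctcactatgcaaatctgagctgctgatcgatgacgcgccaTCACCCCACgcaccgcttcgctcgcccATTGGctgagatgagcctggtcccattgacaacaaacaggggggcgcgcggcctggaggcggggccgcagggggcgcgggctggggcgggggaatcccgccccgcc
HMGCS1: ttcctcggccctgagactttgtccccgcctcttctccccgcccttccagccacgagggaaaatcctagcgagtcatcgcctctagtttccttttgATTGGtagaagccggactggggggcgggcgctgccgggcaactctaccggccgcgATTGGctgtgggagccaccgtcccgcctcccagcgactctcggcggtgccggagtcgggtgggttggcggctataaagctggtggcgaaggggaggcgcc
SCD: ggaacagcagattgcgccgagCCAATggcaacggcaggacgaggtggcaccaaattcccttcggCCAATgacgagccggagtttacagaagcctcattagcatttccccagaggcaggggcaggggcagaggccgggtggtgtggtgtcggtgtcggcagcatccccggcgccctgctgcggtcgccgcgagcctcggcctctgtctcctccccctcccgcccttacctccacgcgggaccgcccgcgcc
SREBF1: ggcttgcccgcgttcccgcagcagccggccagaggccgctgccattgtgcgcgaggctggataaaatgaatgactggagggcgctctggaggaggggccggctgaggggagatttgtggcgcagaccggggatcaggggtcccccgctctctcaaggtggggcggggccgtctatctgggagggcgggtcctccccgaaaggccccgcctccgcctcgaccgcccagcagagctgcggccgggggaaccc

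The SREBP site was present in the window of SREBF2 alone among the 26 members, 133 bases before the start, and in 0.883% of all 35116 promoters. The CCAAT box was found in 17 of the 26 members, or 65.4%, and in 37.0% of the 27305 genes with a listed promoter. HMGCS1, in the window shown, and SCD each carried a pair of them, while another listed start of HMGCS1 had none. ELOVL6 and INSIG2 were among the members with no match to any of the 3 motifs. The E-box was found in INSIG1 and SCAP, and in 7.73% of genes. None of the 3 motifs overlapped another kind in a member's window. These matches describe letters only, and the SREBF1 window with no match says nothing of which factors act there.

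Both SREBF genes also hold a microRNA, which the files list under the hairpin genes MIR33B and MIR33A. The mature forms are printed from RefSeq (GRCh38.p14) because they share a seed, the bases 2 to 8 that pair with a target and that are given in capitals, and because miR-33 is known to repress the cholesterol exporter ABCA1, whose values were also measured. hsa-miR-33b lies at chr17:17813897-17813916 (minus strand) within SREBF1 and hsa-miR-33a at chr22:41900949-41900969 (plus strand) within SREBF2.
hsa-miR-33b-5p: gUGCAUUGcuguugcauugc
hsa-miR-33a-5p: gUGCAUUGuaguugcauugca

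The hairpin genes did not exceed 0.30 RPKM in any library. Libraries of this kind do not measure mature microRNAs.

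All 30 genes were expressed in each library, from 2.57 RPKM for ELOVL6 in a Ni-W library to 150.15 RPKM for FDPS in the same library. Fold changes were tested with DESeq2 on the counts, and a gene was called when its adjusted P value was under 0.05 and its change reached 1.5-fold. Up- or downregulated refers to called genes only, and a gene that met the first criterion alone is described as higher or lower at under 1.5-fold. In each of the 6 pairwise comparisons all 30 members passed the filter on low counts. Over all of them, 6 members were called at least once (HMGCS1, TM7SF2, INSIG2, SREBF1, SCD and ELOVL6) and 24 were never called. Of these 24, 11 never reached an adjusted P value under 0.05: MVK, PMVK, MVD, FDFT1, SQLE, NSDHL, HSD17B7, EBP, STARD4, FADS1 and LPIN1.

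During exposure 1 member was called, TM7SF2, which is 3.33% of the 30 against 5.8% of the 14478 genes tested in Ni-E against UT. At an adjusted P value under 0.05 with no fold criterion there were 2 members, 6.67%, against 11.6% of all genes. In Ni-W against UT, 1 member was upregulated and 2 were downregulated, together 10% against a background of 15.7%, and 10 members passed the adjusted P value alone, 33.3% against 31.1%. HCl3 against UT gave 1 upregulated and 2 downregulated members, again 10%, against 14.8% of all genes, and 12 members by adjusted P value alone, 40% against 31.4%. Thus the share of called members lay at or below that of all genes in each comparison with UT. All 3 comparisons share the UT libraries.

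Among the nickel-treated groups, too, the called share of members lay below that of all genes tested. By adjusted P value alone, the share of members lay above that of all genes in HCl3 against Ni-W. Ni-W against Ni-E called 4 members, 13.3% against 20.5% of all genes, with 10 members (33.3% against 39.2%) by adjusted P value alone. HCl3 against Ni-E called 3 members, 10% against 17.1%, with 10 members (33.3% against 37.6%) by adjusted P value alone. HCl3 against Ni-W called 1 member, 3.33% against 4.77%, and 8 members (26.7% against 16.6%) passed the adjusted P value alone. Members are well expressed, and among the 9739 genes with a mean count at least that of the lowest member the called shares were 5.08% in Ni-E against UT, 13.0% in Ni-W against UT, 11.6% in HCl3 against UT, 19.4% in Ni-W against Ni-E, 15.3% in HCl3 against Ni-E and 2.90% in HCl3 against Ni-W. In HCl3 against Ni-W the share of members, 3.33%, lay above this matched share. The shares by adjusted P value alone were not matched for level.

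Taken over all 30 genes, the changes were centred close to 0. The median log2 fold change of the 30 members against UT was -0.06 for Ni-E, -0.07 for Ni-W and -0.08 for HCl3, beside medians of no more than 0.01 in size over all genes tested. The median size of the change, without sign, was 0.19 for members and 0.22 for all genes with Ni-E, 0.17 and 0.33 with Ni-W, and 0.22 and 0.32 with HCl3. These all-gene medians include genes with fewer reads than any member, whose fold changes are less precise. They were not matched for level, so they do not show whether members changed less than genes of like expression. In each of these 3 comparisons 27 of the 30 members stayed within 1.5-fold of UT.

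**Figure D1:**
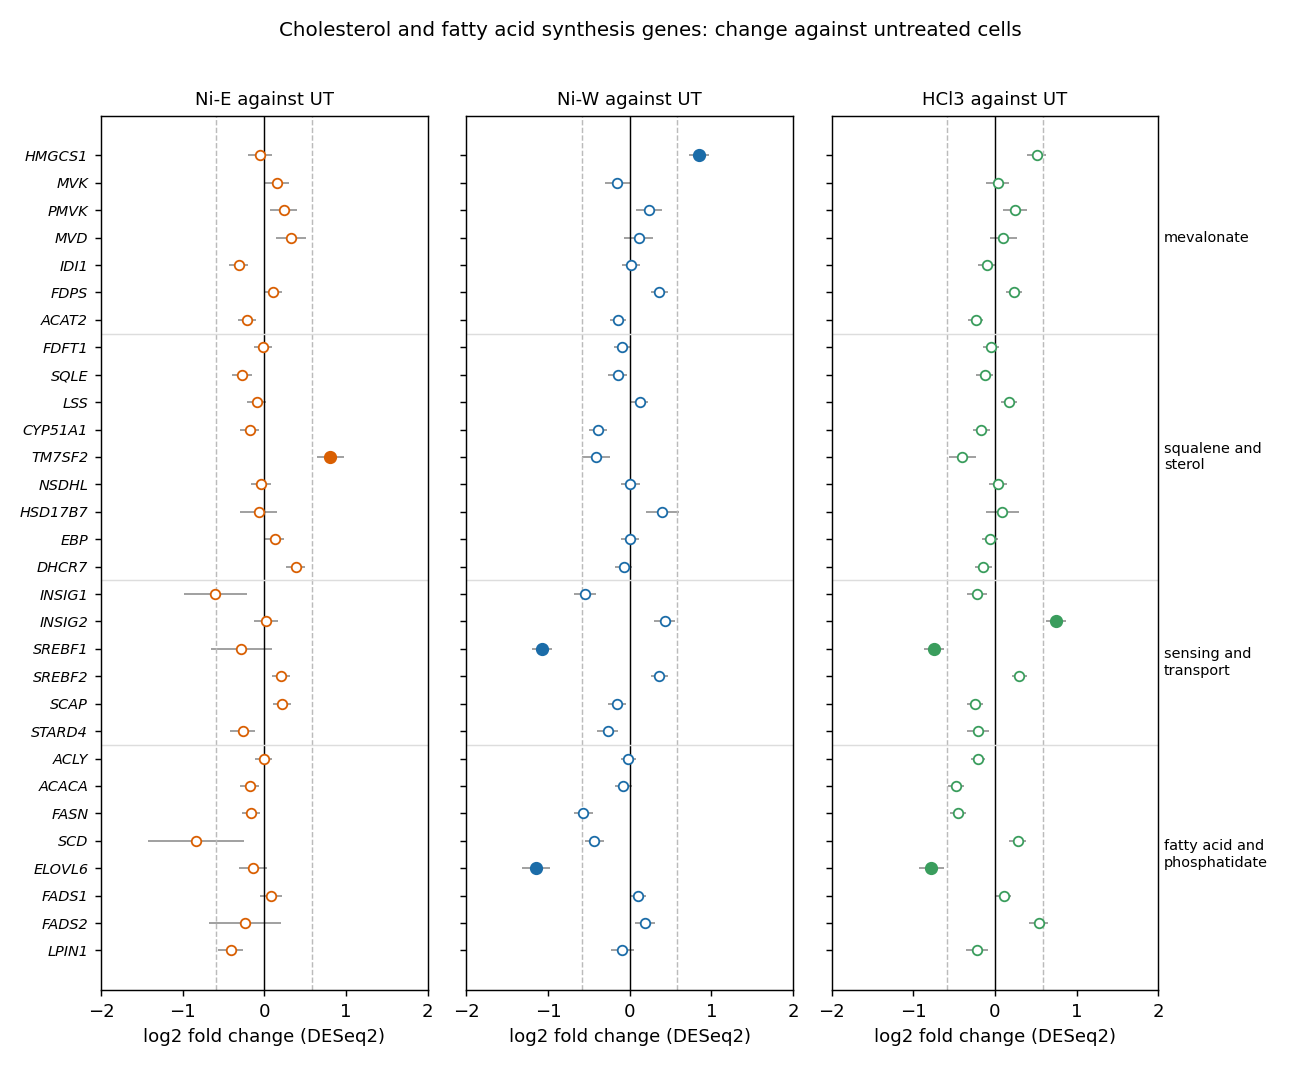
Log2 fold change against UT for each of the 30 genes (x axis, log2 scale; points, DESeq2 estimate; bars, standard error), grouped by role, with 1 panel for each nickel-treated group and 2 libraries per group. Filled points passed both criteria and dashed lines mark 1.5-fold; 1 gene was called for Ni-E, 3 for Ni-W and 3 for HCl3, and 27 of 30 points in each panel lie inside the dashed lines.

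The first role is the mevalonate arm of 7 genes, in which ACAT2 joins acetyl-CoA units, HMGCS1 makes HMG-CoA, MVK, PMVK and MVD process mevalonate, IDI1 isomerizes the isoprenoid unit and FDPS builds farnesyl diphosphate. HMGCS1 was the called member of this arm. Its level was 6.19 and 6.75 RPKM in UT cells, 5.76 and 7.25 in Ni-E cells, 11.59 and 12.25 in Ni-W cells, and 9.60 and 9.53 in HCl3 cells. Both Ni-W libraries and both HCl3 libraries thus lay above all 4 UT and Ni-E libraries, with no overlap. HMGCS1 (chr5:43287572-43313614, hg19, minus strand) was upregulated in Ni-W against UT by a log2 fold change of 0.85 ± 0.12 (SE; DESeq2 adjusted P = 7.81e-11) and against Ni-E by 0.88 ± 0.13 (DESeq2 adjusted P = 4.26e-11). In HCl3 the difference from UT was 0.51 ± 0.11 (DESeq2 adjusted P = 6.62e-05), which is 1.43-fold and below the fold criterion, and HCl3 was lower than Ni-W by a log2 fold change of -0.33 ± 0.09 (DESeq2 adjusted P = 0.00275). Ni-E did not differ detectably from UT, with a log2 fold change of -0.05 and a 95% interval from -0.34 to 0.24.

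The rest of the mevalonate arm moved little. FDPS measured 115.07 and 106.06 RPKM in UT cells, 119.22 and 129.81 in Ni-E cells, 150.15 and 141.77 in Ni-W cells, and 129.21 and 140.16 in HCl3 cells. Ni-W was higher than UT at 1.29-fold (log2 fold change 0.36 ± 0.10, DESeq2 adjusted P = 0.00248), while the HCl3 value overlapped Ni-E. Over 141 other genes within 5 Mb of FDPS, the median log2 fold change against UT was 0.28 in Ni-W and 0.03 in HCl3. The part of that region in the FDPS difference was not tested. IDI1 ran from 23.80 to 31.70 RPKM and was higher in Ni-W than in Ni-E at 1.25-fold (DESeq2 adjusted P = 0.00953). ACAT2 ran from 83.38 to 100.52 RPKM and was lower in HCl3 than in UT at 1.18-fold (DESeq2 adjusted P = 0.0347), a difference that was lost when trends with GC content and transcript length were removed. Reads with several alignments had been removed, so the levels of genes with near-identical pseudogene copies, such as FDPS and HSD17B7, are uncertain by an amount not measured here. FDPS, IDI1, ACAT2, STARD4 and ACACA also overlap a gene on the opposite strand. The mevalonate kinases and decarboxylase MVK, PMVK and MVD had no adjusted P value under 0.05. Summed over the 7 genes, the arm held 272.91 to 290.46 RPKM in UT cells, 273.98 to 303.11 in Ni-E cells, 313.14 to 327.39 in Ni-W cells and 294.64 to 308.82 in HCl3 cells. Most of the difference between UT and Ni-W in this sum lay in FDPS, and the mean of ACAT2 was lower in Ni-W than in UT.

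The second role is the arm of 9 genes from squalene to sterols. FDFT1 and SQLE make and oxidize squalene, LSS closes the ring to lanosterol, and CYP51A1, TM7SF2, NSDHL, HSD17B7, EBP and DHCR7 trim, reduce and rearrange it toward cholesterol. TM7SF2, a sterol reductase, was the only member called during exposure. It stood at 14.54 and 10.85 RPKM in UT cells, 21.21 and 25.11 in Ni-E cells, 10.05 and 9.54 in Ni-W cells, and 9.72 and 10.29 in HCl3 cells. The Ni-E libraries were the highest and did not overlap any other group, whereas every Ni-W and HCl3 library was below both UT libraries. TM7SF2 (chr11:64879326-64883707, hg19, plus strand) was upregulated 1.75-fold in Ni-E against UT (log2 fold change 0.81 ± 0.17, DESeq2 adjusted P = 7.35e-05). Against Ni-E it was downregulated 2.36-fold in Ni-W (log2 fold change -1.24 ± 0.14, DESeq2 adjusted P = 1.73e-17) and 2.33-fold in HCl3 (-1.22 ± 0.13, DESeq2 adjusted P = 5.49e-19). The differences of Ni-W and HCl3 from UT did not pass, at -0.42 (DESeq2 adjusted P = 0.0513) and -0.40 (DESeq2 adjusted P = 0.051).

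The Ni-E call for TM7SF2 rested on the processing more than any other call in a comparison with UT. With GC and length trends removed, the log2 fold change was 0.52 ± 0.13, and without Ni-E replicate 2 it was 0.70 (DESeq2 adjusted P = 0.0817), so that neither passed both criteria, and limma on log2-transformed RPKM values did not call it either. The downregulation from Ni-E to Ni-W and to HCl3 was called under each alternative that was run. TM7SF2 overlaps VPS51 on the same strand, and reads from the shared stretch could be counted to either. VPS51 measured 32.22 and 27.04 RPKM in UT cells, 37.71 and 35.73 in Ni-E cells, 25.05 and 22.26 in Ni-W cells, and 26.70 and 27.37 in HCl3 cells, the same order of groups at a smaller spread.

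DHCR7, the reductase that yields cholesterol itself, followed TM7SF2 at smaller size. Its level was 33.64 and 31.69 RPKM in UT cells, 42.58 and 45.94 in Ni-E cells, 32.50 and 31.13 in Ni-W cells, and 29.15 and 32.17 in HCl3 cells, so that the Ni-E libraries stood above all others. It was higher in Ni-E than in UT at 1.30-fold (log2 fold change 0.38 ± 0.11, DESeq2 adjusted P = 0.0107), a difference that did not pass when GC and length trends were removed or when any of the 4 libraries was left out. It was lower than Ni-E in Ni-W (-0.47 ± 0.10, DESeq2 adjusted P = 8.04e-06) and in HCl3 (-0.54 ± 0.09, DESeq2 adjusted P = 4.11e-08). CYP51A1, the lanosterol demethylase, was lower in Ni-W than in UT at 1.31-fold (DESeq2 adjusted P = 0.00383), with 21.14 and 22.41 RPKM in UT against 16.58 and 17.56 in Ni-W, and LSS was higher in HCl3 than in Ni-E at 1.19-fold (DESeq2 adjusted P = 0.01). The other 5 genes of the arm passed in no comparison. FDFT1, for example, lay between 52.41 and 57.02 RPKM in all 8 libraries, and SQLE between 17.88 and 22.57.

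The third role is sterol sensing and transport, 6 genes. SREBF1 and SREBF2 encode the transcription factors, SCAP their escort, INSIG1 and INSIG2 the retention proteins, and STARD4 a carrier of cholesterol in the cytosol. Against UT, SREBF1 was lower and SREBF2 higher in both groups grown without nickel. SREBF1 measured 23.93 and 19.21 RPKM in UT cells, 14.03 and 23.02 in Ni-E cells, 10.34 and 10.72 in Ni-W cells, and 13.41 and 13.31 in HCl3 cells. Ni-W and HCl3 lay below every UT and Ni-E library without overlap, and the Ni-E libraries were far apart. SREBF1 (chr17:17714663-17740325, hg19, minus strand) was downregulated 2.10-fold in Ni-W (log2 fold change -1.07 ± 0.13, DESeq2 adjusted P = 2.76e-15) and 1.68-fold in HCl3 (-0.75 ± 0.12, DESeq2 adjusted P = 5.87e-09) against UT. Without UT replicate 1 the HCl3 value was -0.58, just under 1.5-fold. The level in HCl3 was above that in Ni-W (0.33 ± 0.09, DESeq2 adjusted P = 0.00232), which did not pass with GC and length trends removed, with all 8 libraries in a single fit, without Ni-W replicate 1 or without either HCl3 replicate.

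SREBF2 measured 33.19 and 30.33 RPKM in UT cells, 35.77 and 40.26 in Ni-E cells, 42.06 and 41.74 in Ni-W cells, and 40.30 and 41.00 in HCl3 cells. All 6 nickel-treated libraries were above both UT libraries. SREBF2 (chr22:42229083-42303312, hg19, plus strand) was higher than UT at 1.29-fold in Ni-W (log2 fold change 0.36 ± 0.10, DESeq2 adjusted P = 0.002) and at 1.23-fold in HCl3 (0.30 ± 0.09, DESeq2 adjusted P = 0.00632), while Ni-E at 0.20 ± 0.11 did not pass (DESeq2 adjusted P = 0.273). Against Ni-E no difference of SREBF2 passed, at 0.15 in Ni-W (DESeq2 adjusted P = 0.209) and 0.08 in HCl3 (DESeq2 adjusted P = 0.454), nor did SREBF1 in HCl3 at -0.48 (DESeq2 adjusted P = 0.266). The ratio of SREBF1 to SREBF2 per length was 0.721 and 0.633 in UT cells, 0.392 and 0.572 in Ni-E cells, 0.246 and 0.257 in Ni-W cells, and 0.333 and 0.325 in HCl3 cells. It was therefore lower than UT in all 6 nickel-treated libraries and lowest in Ni-W.

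The neighbourhood of SREBF1 moved in the same direction as the gene. Over the 62 other genes tested within 5 Mb on either side, the median log2 fold change was -0.34 in Ni-W against UT and -0.42 in HCl3 against UT, beside 0.06 in Ni-E against UT. For all 752 genes of chromosome 17 these medians were -0.08, -0.10 and 0.02. SREBF1 also overlaps RAI1 on the opposite strand, and whether counting used strand was not stated. RAI1 measured 12.65 and 10.45 RPKM in UT cells, 9.28 and 12.71 in Ni-E cells, 8.41 and 8.50 in Ni-W cells, and 8.70 and 8.71 in HCl3 cells. The part of the region and of RAI1 in the SREBF1 result was not tested. For the other members called against UT the neighbourhood medians were nearer to 0, at 0.12 for TM7SF2 in Ni-E, 0.17 for HMGCS1 in Ni-W, -0.20 for INSIG2 in HCl3, and -0.16 in Ni-W and -0.22 in HCl3 for ELOVL6. That of INSIG2 was opposite in sign to its own change.

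INSIG2 was the member upregulated in HCl3. Its level was 9.52 and 9.92 RPKM in UT cells, 9.87 and 10.67 in Ni-E cells, 13.81 and 13.02 in Ni-W cells, and 17.54 and 16.39 in HCl3 cells. UT and Ni-E overlapped, whereas Ni-W lay above both and HCl3 above Ni-W. INSIG2 (chr2:118846050-118867597, hg19, plus strand) was upregulated 1.68-fold in HCl3 against UT (log2 fold change 0.75 ± 0.12, DESeq2 adjusted P = 1.12e-08) and 1.64-fold against Ni-E (0.71 ± 0.11, DESeq2 adjusted P = 3.79e-09). In Ni-W it was higher than UT at 1.35-fold (0.43 ± 0.13, DESeq2 adjusted P = 0.00537), and HCl3 was higher than Ni-W at 1.25-fold (0.32 ± 0.10, DESeq2 adjusted P = 0.0113).

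INSIG1, its paralog and itself a well-known SREBP target, took another course. It measured 16.33 and 14.23 RPKM in UT cells, 7.61 and 13.40 in Ni-E cells, 11.32 and 10.12 in Ni-W cells, and 13.19 and 13.99 in HCl3 cells. All 6 nickel-treated libraries were below both UT libraries. Only the Ni-W difference passed, at 1.46-fold (log2 fold change -0.54 ± 0.13, DESeq2 adjusted P = 0.000394). SCAP measured 30.71 and 29.30 RPKM in UT cells, 35.06 and 37.39 in Ni-E cells, 25.92 and 29.42 in Ni-W cells, and 25.91 and 26.77 in HCl3 cells, with both Ni-E libraries the highest of the 8. It was lower than Ni-E at 1.30-fold in Ni-W (log2 fold change -0.38 ± 0.10, DESeq2 adjusted P = 0.000696) and at 1.39-fold in HCl3 (-0.47 ± 0.08, DESeq2 adjusted P = 8.46e-08), where the medians over 128 neighbouring genes were -0.16 and -0.36. SCAP was also lower in HCl3 than in UT at 1.18-fold (DESeq2 adjusted P = 0.0358), beside a neighbouring median of -0.36 that was larger than its own log2 fold change of -0.24, and STARD4 passed in no comparison.

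**Figure D2:**
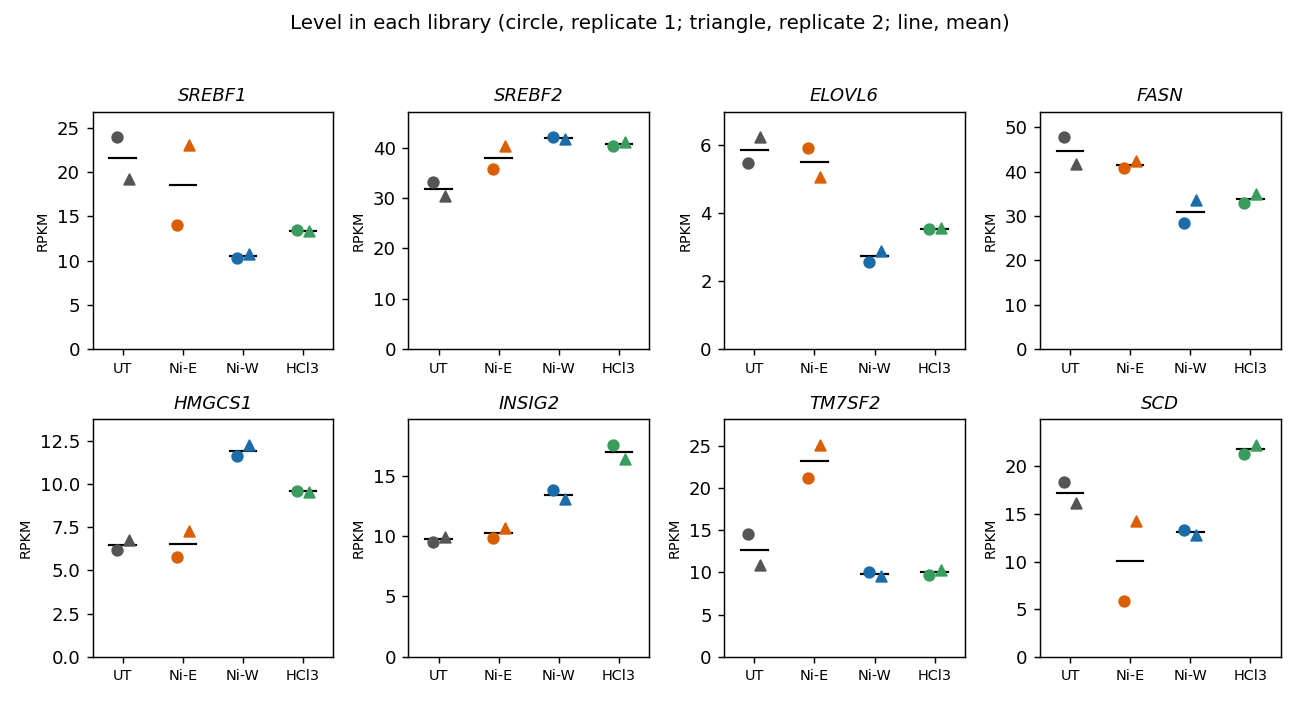
Level of 8 genes in each library (y axis, RPKM from 0; x axis, group), with circles for replicate 1, triangles for replicate 2 and a line for the mean of the 2. SREBF1, ELOVL6 and FASN are lower and HMGCS1, INSIG2 and SREBF2 higher in both Ni-W and HCl3 libraries than in both UT libraries, TM7SF2 is highest in Ni-E, and the Ni-E replicates of SCD lie at 5.89 and 14.29.

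The fourth role is the fatty acid and phosphatidate arm of 8 genes. ACLY supplies cytosolic acetyl-CoA, ACACA makes malonyl-CoA, FASN builds palmitate, ELOVL6 lengthens it, SCD adds the first double bond, FADS1 and FADS2 desaturate polyunsaturated chains and LPIN1 is a phosphatidate phosphatase. ELOVL6 and FASN, which act in succession, were both lower than UT in the groups grown without nickel. ELOVL6 measured 5.47 and 6.23 RPKM in UT cells, 5.92 and 5.07 in Ni-E cells, 2.57 and 2.89 in Ni-W cells, and 3.54 and 3.55 in HCl3 cells. UT and Ni-E overlapped, and all 4 Ni-W and HCl3 libraries lay below them. ELOVL6 (chr4:110970229-111119820, hg19, minus strand) was downregulated 2.21-fold in Ni-W against UT (log2 fold change -1.14 ± 0.17, DESeq2 adjusted P = 1.23e-09), the largest change of a member against UT, and 1.71-fold in HCl3 (-0.78 ± 0.16, DESeq2 adjusted P = 8.43e-06). Against Ni-E it was downregulated by -1.02 ± 0.18 in Ni-W (DESeq2 adjusted P = 7.64e-08) and by -0.65 ± 0.16 in HCl3 (DESeq2 adjusted P = 0.000241). The last call was lost without Ni-E replicate 1 (-0.53) and without either HCl3 replicate (-0.64 and -0.66).

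FASN measured 47.77 and 41.75 RPKM in UT cells, 40.77 and 42.33 in Ni-E cells, 28.40 and 33.62 in Ni-W cells, and 32.92 and 34.93 in HCl3 cells. As with ELOVL6, UT and Ni-E overlapped and both later groups lay below. The difference from UT was 1.48-fold in Ni-W (log2 fold change -0.57 ± 0.12, DESeq2 adjusted P = 1.76e-05) and 1.37-fold in HCl3 (-0.45 ± 0.10, DESeq2 adjusted P = 3.49e-05), both short of the fold criterion. With GC and length trends removed, both passed it, at -0.65 in Ni-W and -0.71 in HCl3.

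The enzymes before FASN differed between the 2 groups grown without nickel. ACACA measured 12.74 and 14 RPKM in UT cells, 11.80 and 12.68 in Ni-E cells, 12.87 and 13.08 in Ni-W cells, and 10.01 and 9.89 in HCl3 cells. HCl3 was the group below all others, lower than UT at 1.39-fold (log2 fold change -0.47 ± 0.10, DESeq2 adjusted P = 1.8e-05) and lower than Ni-W at 1.31-fold (-0.39 ± 0.08, DESeq2 adjusted P = 1.01e-05). The median over 98 genes within 5 Mb of ACACA was -0.25 in HCl3 against Ni-W. It was -0.01 in HCl3 against UT and 0.31 in Ni-W against UT. The part of that region in the ACACA differences was not tested. ACLY, at 127.84 to 149.07 RPKM, was likewise lowest in HCl3, lower than Ni-W at 1.14-fold (DESeq2 adjusted P = 0.0345). In Ni-W against UT the 95% interval of the log2 fold change ran from -0.28 to 0.13 for ACACA and from -0.20 to 0.17 for ACLY.

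SCD separated Ni-W from HCl3. It measured 18.36 and 16.10 RPKM in UT cells, 5.89 and 14.29 in Ni-E cells, 13.36 and 12.80 in Ni-W cells, and 21.30 and 22.24 in HCl3 cells. Ni-W lay below and HCl3 above both UT libraries. SCD (chr10:102106772-102124588, hg19, plus strand) was upregulated 1.65-fold in HCl3 against Ni-W (log2 fold change 0.72 ± 0.08, DESeq2 adjusted P = 1.11e-16). Against UT it was lower in Ni-W (-0.43 ± 0.11, DESeq2 adjusted P = 0.00102) and higher in HCl3 (0.28 ± 0.10, DESeq2 adjusted P = 0.0251), both under 1.5-fold. When all 8 libraries were placed in a single fit with a shared spread per gene, the SCD difference between HCl3 and Ni-W kept its size (0.72 ± 0.42) and was not called (DESeq2 adjusted P = 0.303).

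FADS2 was also higher in HCl3, with 33.96 and 34.41 RPKM against 24.66 and 20.87 in UT cells, 14.67 and 26.05 in Ni-E cells and 27.41 and 25.76 in Ni-W cells. The HCl3 libraries were the highest of the 8, at 1.45-fold over UT (log2 fold change 0.54 ± 0.11, DESeq2 adjusted P = 2.11e-05) and 1.27-fold over Ni-W (0.35 ± 0.08, DESeq2 adjusted P = 0.000275). FADS1, its neighbour on chromosome 11, lay between 35.32 and 48.22 RPKM and passed in no comparison. LPIN1 lay between 3.31 and 4.36 RPKM, with both Ni-E libraries the lowest, and missed the threshold in Ni-E against UT (-0.41 ± 0.15, DESeq2 adjusted P = 0.0558).

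**Figure D3:**
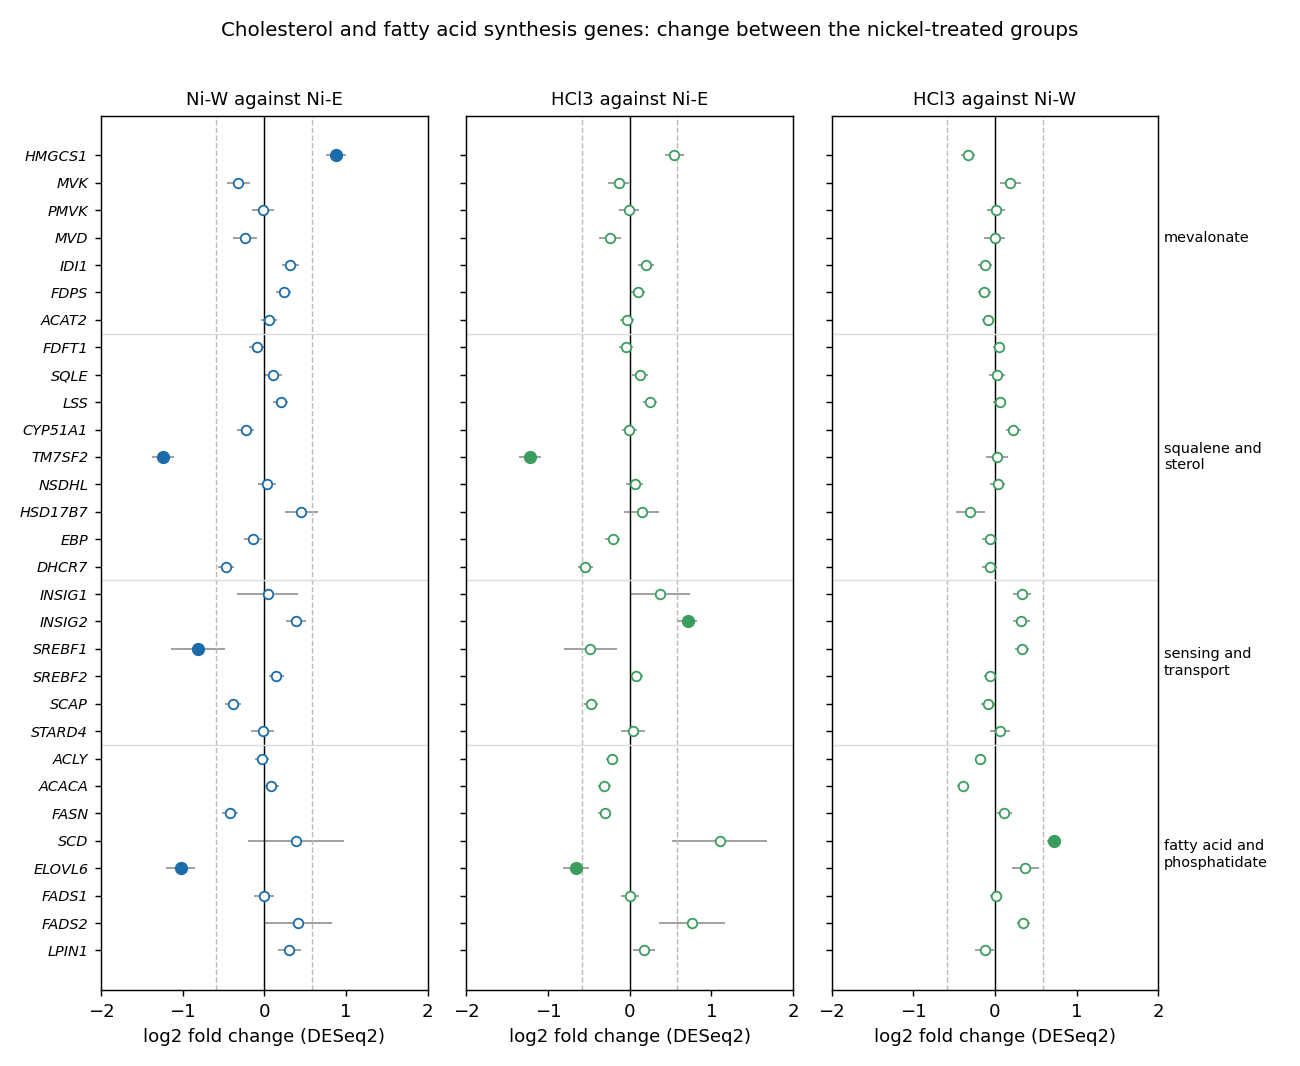
Log2 fold change between the nickel-treated groups for each of the 30 genes (x axis, log2 scale; points, DESeq2 estimate; bars, standard error), grouped by role, with 2 libraries per group. Filled points passed both criteria and dashed lines mark 1.5-fold; TM7SF2 lies at -1.24 and -1.22 in the comparisons with Ni-E, SCD was the gene called in HCl3 against Ni-W, and the bars of SCD, FADS2, INSIG1 and SREBF1 are wide wherever Ni-E takes part.

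The Ni-E replicates disagreed on 4 of the 30 genes. Between the replicates of a group, no member differed by 1.5-fold or more in UT, Ni-W or HCl3. In Ni-E, SCD was higher in replicate 2 than in replicate 1 by 1.24 on the log2 scale of normalized counts, FADS2 by 0.84, INSIG1 by 0.75 and SREBF1 by 0.67. Among the 9739 genes expressed at the members' level, 1.51% differed this much between the Ni-E replicates, and 1.51% between the UT replicates. Counting differences of any size, 23 of the 30 members were higher in replicate 2 of Ni-E, 22 in replicate 2 of HCl3, 14 in replicate 2 of UT and 13 in replicate 2 of Ni-W. The baseline over all genes differed between groups. In Ni-E a log2 ratio of 0.01 (FASN) lay above 61.6% of the 9739 genes. Ratios near 0 lay above 46.8% in HCl3 (ACACA, 0.001), 46.3% in UT (FADS1, 0.01) and 46.1% in Ni-W (SREBF2, -0.002).

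What the data show for SCD, FADS2, INSIG1 and SREBF1 during exposure therefore depends on which Ni-E library is used. Without Ni-E replicate 2, the remaining library gave 4 downregulated members against UT: SCD (log2 fold change -1.59, DESeq2 adjusted P = 3.99e-15), INSIG1 (-1.02, DESeq2 adjusted P = 8.09e-05), FADS2 (-0.72, DESeq2 adjusted P = 0.00804) and SREBF1 (-0.66, DESeq2 adjusted P = 0.0164). Without Ni-E replicate 1, TM7SF2 was the gene called (0.91, DESeq2 adjusted P = 0.00893) and SCD was at -0.34 (DESeq2 adjusted P = 0.443). With both replicates SCD in Ni-E stood at -0.83 ± 0.59, with a 95% interval from -1.99 to 0.32. The comparisons with Ni-E inherit this spread. The downregulation of SREBF1 in Ni-W against Ni-E (-0.81 ± 0.33, DESeq2 adjusted P = 0.0393) was -0.44 and under 1.5-fold without Ni-E replicate 2 and -1.11 without Ni-E replicate 1. In HCl3 against Ni-E, 7 members were called without Ni-E replicate 2, with SCD at 1.85, FADS2 at 1.23 and INSIG1 at 0.79. The same Ni-E libraries differed in the summed level of the 4 fibroblast markers, at 177.63 and 337.35 RPKM, and of 6 epithelial markers, at 579.19 and 793.59 RPKM. The part of these differences was not tested.

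**Figure D4:**
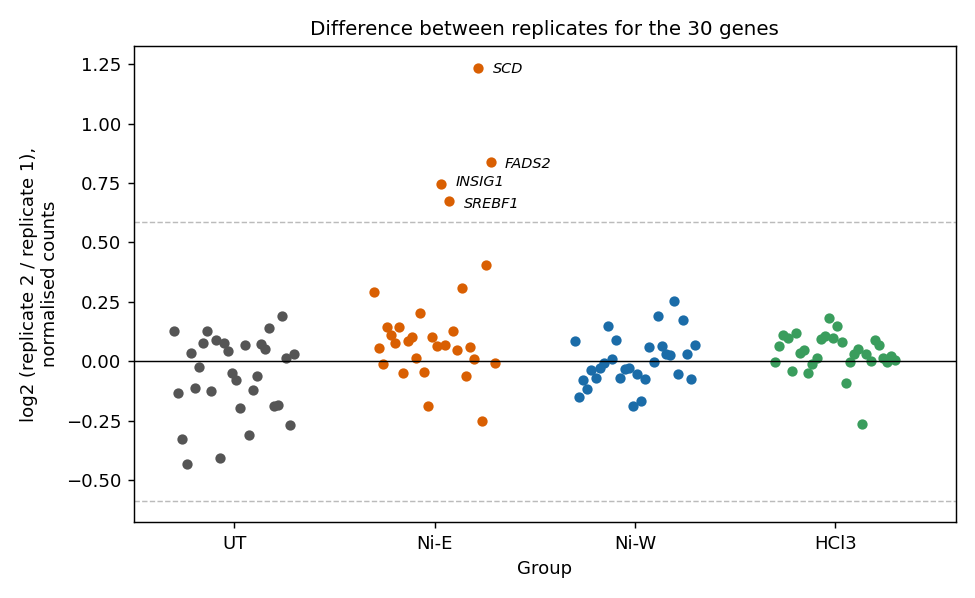
Log2 ratio of replicate 2 to replicate 1 (y axis, normalized counts) for each of the 30 genes, by group (x axis); dashed lines mark 1.5-fold. In UT, Ni-W and HCl3 each point lies inside the lines, and in Ni-E SCD, FADS2, INSIG1 and SREBF1 lie above them.

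Genes around the pathway were examined in lists made by function, also with earlier results known. Of 8 other enzymes of cholesterol synthesis, 1 was called in Ni-W against UT and 1 in Ni-W against Ni-E. The shares of all genes called there were 15.7% and 20.5%. In both it was GGPS1, which makes geranylgeranyl diphosphate from the farnesyl diphosphate of FDPS. It measured 9.49 and 10.47 RPKM in UT cells, 9.15 and 9.14 in Ni-E cells, 16.30 and 15.31 in Ni-W cells, and 11.98 and 11.92 in HCl3 cells. GGPS1 was upregulated in Ni-W against UT (log2 fold change 0.63 ± 0.13, DESeq2 adjusted P = 1.11e-05) and against Ni-E (0.80 ± 0.12, DESeq2 adjusted P = 6.96e-10). Whether its chromosomal region had a part in these differences was not tested.

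Among 16 genes of SREBP processing, sterol uptake, efflux and storage, ABCA1, which exports cholesterol from the cell, was called in each nickel-treated group against UT. It measured 0.51 and 0.40 RPKM in UT cells, 0.22 and 0.24 in Ni-E cells, 0.92 and 0.95 in Ni-W cells, and 1.47 and 1.45 in HCl3 cells. Its 4 groups did not overlap, although the level was low in each. It was downregulated in Ni-E (log2 fold change -1.03 ± 0.31, DESeq2 adjusted P = 0.0111) and upregulated in Ni-W (0.99 ± 0.22, DESeq2 adjusted P = 6.96e-05) and in HCl3 (1.61 ± 0.19, DESeq2 adjusted P = 3.76e-15) against UT.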

How the data were processed

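RNA-Seq was performed by the authors on 2 biological replicates per group. Per the study's methods, reads were aligned to hg19 with STAR (version 2.4), reads with several alignments were removed, and expression was quantified per RefSeq gene with BioWardrobe. The deposited files give, for each library on its own, read counts and the RPKM values that the authors derived from them, rounded to 2 decimals. RPKM scales reads to transcript length and library size. A value covers all exons of a gene, and whether strand was used in counting was not given in the sources used here.

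Groups were taken from the labels. DESeq2 1.42.0 in R 4.3.3 was run on the deposited counts of the 4 libraries of each pair of groups. Size factors were medians of ratios, the Wald test was two-sided, and Benjamini-Hochberg adjustment covered all genes left by independent filtering. Genes were called at an adjusted P value under 0.05 and at least 1.5-fold, as in the study's methods. RPKM values are given as levels and were not tested in the main analysis. A permutation of 2 against 2 libraries cannot pass 0.05, and the tests depend on the dispersion that DESeq2 borrows between genes. Totals of 26383920 to 45692298 reads per library set the precision, and reads carried no molecular identifiers. Where an ordering, a ratio or an overlap of levels is given, it is a description.

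The 30 members and the other gene lists were chosen with earlier results of these data known. Named genes are all members, those called in at least 1 of the 6 comparisons in full, and genes of the other lists that were called. Alternatives were edgeR 4.0.16 (quasi-likelihood), limma 3.58.1 on log2-transformed RPKM (pseudocount 1 or 0.1), TMM size factors, a mean count of at least 10, all 8 libraries in a single fit, no fold threshold, removal of GC and length trends, the replicate suffix as a block, and omission of each replicate. On simulated counts for Ni-W against UT (25411 genes, 200 changed), DESeq2 recovered all 100 genes changed 4-fold and 88 of 100 changed 2-fold, with 0 false calls, and edgeR recovered 100 and 97 with 2 false calls. With a GC trend planted in the same simulated comparison, DESeq2 recovered 96 and 85 with 369 false calls, and with that trend removed it recovered 100 and 89 with 0 false calls. Every simulated gene had the same dispersion, and changes were planted only among genes above a minimum mean count. Genes with a wider spread, such as SCD in Ni-E, and differences under 2-fold were not simulated, so these figures do not cover them. Python 3.11.15 and matplotlib 3.10.9 were used for tables and plots. Chromatin data and other cell lines were not analysed here, and some genes of the other lists are not reported here.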

Additional observations from a re-analysis of the deposited data

Results flagged for a closer look

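The changes of 5 members against UT differed between Ni-E and Ni-W or HCl3 when those groups were compared directly with DESeq2 and called. Between Ni-W and Ni-E, the log2 fold change was 0.88 for HMGCS1, -1.24 for TM7SF2, -0.81 for SREBF1 and -1.02 for ELOVL6, each with both Ni-W libraries on the same side of both Ni-E libraries. Between HCl3 and Ni-E it was -1.22 for TM7SF2, 0.71 for INSIG2 and -0.65 for ELOVL6, again with no overlap of libraries. The SREBF1 value is the least firm of these, since it was -0.44 without Ni-E replicate 2 and did not pass without either Ni-W replicate (DESeq2 adjusted P = 0.366 and 0.331).

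Of the 8 members with an adjusted P value under 0.05 (DESeq2) in HCl3 against Ni-W, SCD alone reached 1.5-fold, with a log2 fold change of 0.72. Its difference from UT was 0.28 in HCl3 and -0.43 in Ni-W, so that both HCl3 libraries lay above and both Ni-W libraries below the UT libraries. Ni-W was a clonal population, whereas whether HCl3 was also clonal was not given, nor was an experiment number for Ni-W. The differences between Ni-W and HCl3 cannot be told apart from differences between populations or experiments.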

How the results depend on the processing

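The 15 calls were followed through 198 alternative results, of which 182 kept direction and threshold, 16 kept direction but lost the call and 0 reversed. The number of members called was within 1.5 times the main count in 66 of 85 alternatives. In Ni-E against UT the main count of 1 became 2 with all 8 libraries in a single fit (INSIG1 added), 2 with no fold threshold, and 0 with limma on log2(RPKM + 1) or log2(RPKM + 0.1), with GC and length trends removed, and with the replicate block plus that removal. Leaving out replicates gave 1 to 4, and the 4 came without Ni-E replicate 2. In Ni-W against UT the count of 3 became 10 with no fold threshold and 3 to 6 without a replicate, the 6 being reached without UT replicate 2, where FASN, INSIG1 and TM7SF2 were also downregulated. In HCl3 against UT the count of 3 became 5 with GC and length trends removed, with or without the block, 12 with no fold threshold, and 3 to 4 without a replicate. In Ni-W against Ni-E the count of 4 became 10 with no fold threshold and 3 to 5 without a replicate. In HCl3 against Ni-E the count of 3 became 5 with edgeR and 5 with all 8 libraries (SCD and FADS2 added), 10 with no fold threshold, and 2 to 7 without a replicate, the 7 without Ni-E replicate 2. In HCl3 against Ni-W the count of 1 became 0 with all 8 libraries, 8 with no fold threshold and stayed at 1 without any replicate. The causes were not tested.

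The replicate numbers come from the repeat suffix of the labels. Deviations of same-numbered libraries had an r of -0.1397 to 0.1895 across 13856 genes, so the numbers were not taken to pair the samples. With the replicate block the members called stayed at 1, 3, 3, 4, 3 and 1 in the 6 comparisons in the order given above, while all genes called fell to 491 in Ni-E against UT and 455 in HCl3 against Ni-W (main counts 840 and 713), and were 400 and 445 with GC and length trends removed as well. The crossed block gave 1880 genes and 3 members in HCl3 against UT, where the main count was 2333 genes.

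Over all genes, limma called 0 in Ni-E against UT with either pseudocount (556 and 1523 genes at an unadjusted P value under 0.05 past 1.5-fold). With log2(RPKM + 1) it called 1409 in Ni-W and 1305 in HCl3 against UT, 1989 and 1655 in the comparisons of Ni-W and HCl3 with Ni-E, and 247 in HCl3 against Ni-W, where log2(RPKM + 0.1) gave 267. Omitting a replicate lowered all genes called to 356 in Ni-E against UT, 1516 in Ni-W against UT, 1339 in HCl3 against UT, 1757 in HCl3 against Ni-E and 327 in HCl3 against Ni-W. Without Ni-E replicate 2, 233 genes were upregulated and 263 downregulated in Ni-E against UT, compared with 543 and 297 with both replicates. With 2 libraries per group, differences of the members under 1.5-fold were often lost when a library was omitted, which leaves a lone sample that is assumed to vary like the others.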

Other observations

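Of 25 other genes of fatty acid and glycerolipid synthesis, 22 were tested in each comparison with UT. Ni-E had 1 called gene and Ni-W also 1, where 5.8% and 15.7% of all genes tested were called, and HCl3 had 6, where the share of all genes was 14.8%. In Ni-E it was SCD5, a further stearoyl-CoA desaturase, which measured 6.55 and 6.77 RPKM in UT and 11.37 and 11.53 in Ni-E (log2 fold change 0.73 ± 0.14, DESeq2 adjusted P = 1.42e-05). SCD itself stood at 5.89 and 14.29 RPKM in those Ni-E libraries. In Ni-W it was MCAT of mitochondrial fatty acid synthesis, at 13.12 and 12.50 RPKM in UT and 8.73 and 8.63 in Ni-W (-0.60 ± 0.14, DESeq2 adjusted P = 0.000195). In HCl3, ACSS2, which makes acetyl-CoA from acetate, rose from 7.70 and 7.99 RPKM in UT to 14.50 and 15.25 in HCl3 (0.87 ± 0.12, DESeq2 adjusted P = 1.96e-11), and ACSL5 and AGPAT2 also rose, by 0.70 and 0.66. OXSM, ELOVL4 and MID1IP1 fell by 0.70, 0.72 and 0.64. Members in HCl3 that make acetyl-CoA and malonyl-CoA, ACLY and ACACA, were lower than UT at under 1.5-fold.

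Fatty acid oxidation, the opposing route, had 16 genes in the files. In Ni-E against UT, where 5.8% of all genes tested were called, 1 of 14 tested was called, the short-chain dehydrogenase ACADS (log2 fold change 0.60 ± 0.21, DESeq2 adjusted P = 0.0409). The median of the list was 0.26, beside -0.002 over all genes tested. Against UT, 2 of 15 tested were called in Ni-W and 1 of 15 in HCl3, beside 15.7% and 14.8% of all genes. In both, CPT1C, a carnitine palmitoyltransferase, was upregulated (0.92 and 0.76). PPARGC1A, a coactivator of mitochondrial genes, was also called in Ni-W, but it was listed at 0.00 RPKM in UT and Ni-E and at 0.09 in both Ni-W libraries, and no fold is given. Against Ni-E, the very-long-chain dehydrogenase ACADVL was downregulated in Ni-W (-0.73) and in HCl3 (-0.68), with 184.33 and 192.95 RPKM in Ni-E cells, 120.96 and 108.23 in Ni-W cells and 115.44 and 122.68 in HCl3 cells. The medians over 122 genes within 5 Mb of ACADVL were -0.54 and -0.53 in these comparisons, and the part of the region was not tested. ECI1, an enoyl-CoA isomerase, was downregulated in the same comparisons (-0.97 and -0.82), with medians of -0.32 and -0.16 over 125 neighbouring genes.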
